A study of Homo sapiens with 18 samples.

Results

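Protocadherins are adhesion proteins of the cadherin family, and 67 of the 26485 gene rows in these libraries carried a protocadherin symbol. The members were all rows whose symbol starts with PCDH, apart from antisense symbols with a hyphen and apart from PCDH11X, PCDH11Y and PCDH19. They comprised 15 genes of the alpha cluster (PCDHA), 19 of the beta cluster (PCDHB, of which 3 are pseudogenes), 23 of the gamma cluster (PCDHG, of which 1 is a pseudogene) and 10 genes outside the clusters. The RNA came from WIBR3, an established line of human embryonic stem cells (hESC), and from cortical organoids grown from it. Libraries were prepared with bulk MARS-seq, which reads short tags close to transcript 3' ends. The 18 libraries form 6 groups of 3, namely hESC, Day 5 organoids and Day 12 organoids of the LIS1+/+ and of the LIS1+/- genotype. LIS1, whose gene symbol is PAFAH1B1, encodes a protein that regulates dynein motors. People who lack 1 working copy develop lissencephaly, a smooth brain surface without the usual folds. The labels name neither the altered part of LIS1 nor the number of clones, and a difference between clones cannot be told apart from a difference between genotypes.

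The 3 protocadherin clusters lie side by side on chromosome 5. Each alpha and gamma gene has a promoter and a variable exon of its own, which encodes the extracellular cadherin repeats, and this exon is spliced to constant exons that all genes of the cluster share. Beta genes have no constant exons. In neurons each cell uses only a few of the promoters, in a choice that involves the DNA-binding protein CTCF, cohesin and DNA methylation, and the resulting set of proteins at the surface lets a neuron tell its own branches from those of others. The protocadherins outside the clusters are mostly of the delta class, whose members are expressed in regional patterns in the embryo and take part in cell sorting, cell movement and axon growth.

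The shared exons matter for a method that reads 3' ends. Below are the first constant exons of the alpha and gamma clusters, each 59 bases, on the plus strand of GRCh38 in GENCODE release 29, printed because a tag inside one of them names a cluster but no gene. The alpha exon was identical in all 15 alpha genes and the gamma exon in 22 of the 23 gamma genes.
Alpha (chr5:140978949-140979007): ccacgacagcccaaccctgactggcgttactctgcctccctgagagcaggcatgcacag
Gamma (chr5:141494807-141494865): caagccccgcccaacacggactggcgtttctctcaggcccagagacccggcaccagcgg

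Promoters of the beta genes had a stretch in common. RefSeq promoters on GRCh38.p14, covering 250 bases before to 50 bases after each start, were found for 14 beta genes, and the letters GGTGGCGCT were searched on both strands. They stood in 13 of these 14 promoters (92.9%), in 0 of 13 alpha, 0 of 25 gamma and 0 of 9 other protocadherin promoters, and in 176 of all 35116 promoters (0.501%). The letters were chosen after the beta sequences were seen, so the count is a description of them. The exception was PCDHB1, which had no count in any library. In the other 13 the stretch began between 2 and 84 bases before the start. The windows below are 60 bases on the plus strand and show, with the shared letters in capitals, the 5 beta genes whose values are given in most detail; they carry the same core and differ around it.
PCDHB2 (chr5:141094529-141094588): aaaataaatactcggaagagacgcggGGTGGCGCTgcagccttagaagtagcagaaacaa
PCDHB5 (chr5:141135164-141135223): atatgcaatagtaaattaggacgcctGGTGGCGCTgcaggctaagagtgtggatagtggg
PCDHB10 (chr5:141192284-141192343): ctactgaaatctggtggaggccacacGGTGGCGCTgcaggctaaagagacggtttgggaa
PCDHB14 (chr5:141223248-141223307): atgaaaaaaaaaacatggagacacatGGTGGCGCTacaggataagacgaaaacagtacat
PCDHB16 (chr5:141182295-141182354): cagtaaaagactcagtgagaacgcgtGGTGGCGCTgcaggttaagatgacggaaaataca

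Nearly all protocadherin tags that were counted on a gene came from beta genes and from genes outside the clusters. Over the 18 libraries the 67 members had 10032 counts, of which 6102 (60.8%) fell on genes outside the clusters, 3792 (37.8%) on beta genes, 94 (0.937%) on gamma genes and 44 (0.439%) on alpha genes. A library held between 318 and 925 protocadherin counts among 1425098 to 4501489 gene counts. At least 1 count was seen for 7 of 15 alpha, 11 of 23 gamma, 16 of 19 beta and 8 of 10 other members, 42 in all, and 7 members had counts in every library. PCDH12, which marks blood vessels, and PCDH15, a protein of hair cells in the inner ear, had none. In the whole set of 18 libraries the filter on low counts passed 13 members: PCDHB2, PCDHB3, PCDHB4, PCDHB5, PCDHB9, PCDHB10, PCDHB14, PCDHB16, PCDH1, PCDH7, PCDH8, PCDH9 and PCDH18. These are the members with counts to test, and no share of them stands for the family.

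**Figure D1:**
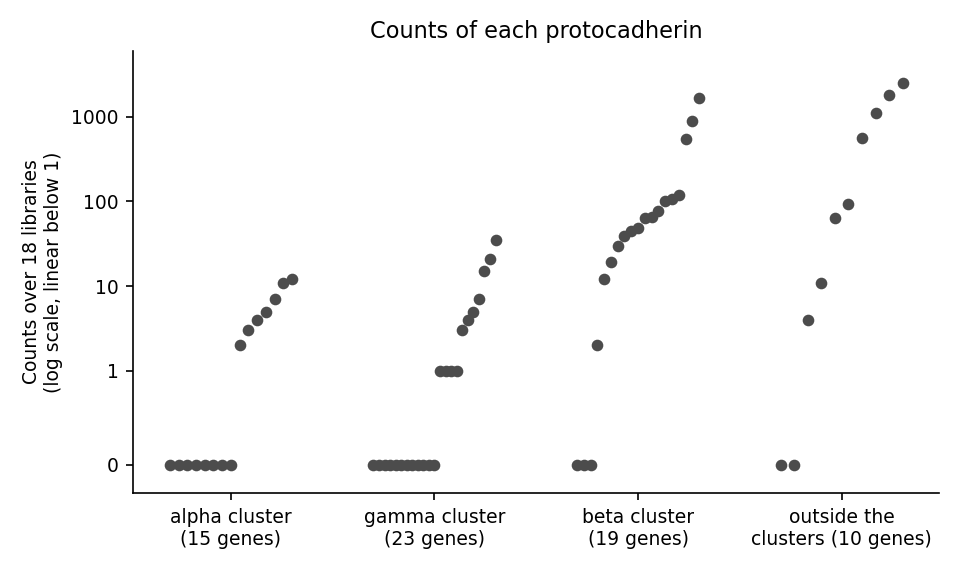
Counts of each protocadherin summed over the 18 libraries (vertical axis, log scale that is linear below 1), 1 point per gene, ordered within the alpha, gamma and beta clusters and the genes outside them. Alpha and gamma genes stop at 12 and 35 counts, while 3 beta genes and 4 genes outside the clusters exceed 500.

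Counts on alpha and gamma genes were too few to compare groups. In GENCODE 29, 23 of 39 alpha transcripts and 25 of 52 gamma transcripts had a last 500 bases that lay at least 99% in exons of other genes of the same strand. Yet 14 of 15 alpha and 22 of 23 gamma genes also had at least 1 annotated transcript that ends in sequence mostly its own, and the 7 alpha and 11 gamma genes with counts were all among these. PCDHA3 and PCDHGB4, whose annotated ends were all shared, had 0 counts. They were among 8 alpha and 12 gamma genes without a count, and the rest of these had an end of their own. PCDH20, outside the clusters, had 65.4% of its annotated end shared and had 4 counts. The 0 counts of PCDHA3 and PCDHGB4 thus do not show an effect of shared ends. Alignments that the files set aside as ambiguous, meaning that they fell on more than 1 gene, made up 0.418 to 0.677% of each library. This was 15686 to 53137 alignments in a library, against 318 to 925 protocadherin counts. They are not split by gene, so tags in the constant exons were not analysed here. The counts therefore give no level for the alpha or gamma cluster as a whole.

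Within those limits the alpha counts were scattered. PCDHA1 had 12 counts, 7 of them in Day 5 LIS1+/- replicate 2, 3 in hESC LIS1+/- replicate 2, and 1 each in hESC LIS1+/- replicate 3 and hESC LIS1+/+ replicate 1. PCDHA9 had 11 counts in 7 libraries and PCDHA4 had 7 counts in 6 libraries, with at most 3 and 2 counts in a library. Day 5 LIS1+/- replicate 2 is 1 of 3 libraries that stood apart from the others of their stage by a loss of counts on genes rich in G and C; the other two were hESC LIS1+/+ replicate 3 and Day 12 LIS1+/+ replicate 2. In the gamma cluster PCDHGA10 led with 35 counts in 12 libraries, at most 7 in a library. PCDHGB6 had 21 counts in 9 libraries and PCDHGC3, a gene of the C type that is used more evenly between cells than the others, had 15 counts in 10 libraries. The PCDHGC3 counts were 4, 1 and 0 in hESC LIS1+/+ and 1, 1 and 1 in hESC LIS1+/-, 2, 1 and 0 against 1, 0 and 2 at Day 5, and 0, 0 and 0 against 0, 0 and 1 at Day 12. These numbers allow no statement on a direction.

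The mean beta share of protocadherin counts was larger at each later stage in both genotypes, and larger in LIS1+/- than in LIS1+/+ at each stage. These shares were not tested and leave out the tags set aside as ambiguous. In LIS1+/+ the beta share was 11.0 ± 2.52% in hESC, 31.0 ± 2.50% at Day 5 and 48.9 ± 2.50% at Day 12 (SD, n = 3). In LIS1+/- it was 21.9 ± 0.872%, 42.3 ± 2.39% and 68.8 ± 3.52%. Genes outside the clusters held the mirror image, with 87.1 ± 1.82%, 67.7 ± 2.45% and 50.2 ± 1.85% in LIS1+/+ and 76.2 ± 0.511%, 56.1 ± 2.62% and 30.3 ± 3.65% in LIS1+/-. A share falls when the other class rises, so the levels are needed beside it. Summed over the beta genes, levels in CPM (tags after scaling by library size) averaged 24.7 ± 5.68, 64.3 ± 4.18 and 96.1 ± 12.0 in LIS1+/+ and 52.2 ± 8.87, 85.2 ± 11.3 and 142 ± 0.857 in LIS1+/-. Summed over the genes outside the clusters they were 195 ± 6.60, 141 ± 10.7 and 99.3 ± 18.7 CPM in LIS1+/+ and 181 ± 26.7, 112 ± 6.36 and 63.0 ± 10.3 CPM in LIS1+/-. Tags are counted per transcript end and were not divided by gene length. In bulk RNA a change in the share of cells that express a gene and a change in RNA per cell cannot be told apart. Pool numbers in the file names differ between the stages, and stage and pool cannot be told apart either.

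A single gene, PCDHB2, carried most of the genotype difference of the beta sum. Of all beta counts, 80.8% came from PCDHB2 (43.2%), PCDHB14 (23.3%) and PCDHB10 (14.3%). The beta sums of the genotypes did not overlap at any stage: 30.0, 18.7 and 25.4 CPM in LIS1+/+ against 56.8, 41.9 and 57.7 CPM in LIS1+/- in hESC, 61.0, 62.9 and 69.0 against 72.1, 91.4 and 92.2 CPM at Day 5, and 103, 103 and 82.2 against 143, 143 and 141 CPM at Day 12. Without PCDHB2 the sums were 19.999, 10.7 and 16.8 against 20.2, 18.9 and 23.1 CPM in hESC, where 1 LIS1+/- library fell inside the LIS1+/+ range. They were 40.8, 37.0 and 41.9 against 30.6, 56.3 and 36.0 CPM at Day 5, and 77.5, 81.8 and 51.1 against 83.5, 88.8 and 71.2 CPM at Day 12. The genotypes then overlapped at all 3 stages, while the Day 12 sums were above the hESC sums in both.

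**Figure D2:**
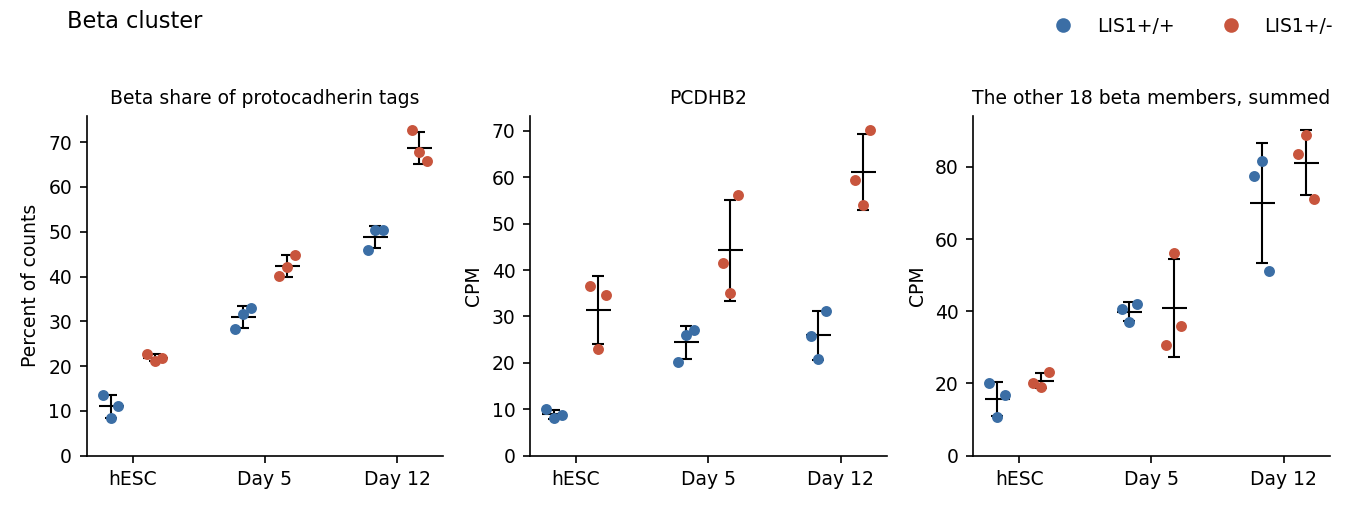
Beta share of protocadherin counts (percent, left), PCDHB2 (CPM, middle) and the summed level of the other 18 beta members (CPM, right) by stage, with 1 point per library, LIS1+/+ in blue, LIS1+/- in red, and black bars for the mean and SD of 3 libraries. The genotypes are separate at each stage on the left and in the middle and overlap on the right.

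PCDHB2 was higher in LIS1+/- in stem cells and in organoids of both ages. LIS1+/+ hESC had 9.9996, 8.02 and 8.69 CPM and LIS1+/- hESC had 36.6, 22.99 and 34.6 CPM. Day 5 organoids had 20.3, 25.9 and 27.1 CPM in LIS1+/+ and 41.5, 35.1 and 56.2 CPM in LIS1+/-. Day 12 organoids had 25.8, 20.8 and 31.1 CPM in LIS1+/+ and 59.4, 54.1 and 70.1 CPM in LIS1+/-. No LIS1+/+ library reached a LIS1+/- library of the same stage, a separation in this direction that held at all 3 stages for 0.164% of the tested genes. LIS1+/- hESC libraries, at 22.99 to 36.6 CPM, overlapped the range of LIS1+/+ organoids at both ages.

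The PCDHB2 log2 fold change of LIS1+/- over LIS1+/+ was 1.80 ± 0.29 (SE, 3.47-fold) in hESC, 0.86 ± 0.23 (1.82-fold) at Day 5 and 1.23 ± 0.24 (2.35-fold) at Day 12. The adjusted p-values from edgeR's quasi-likelihood test over all 12215 tested genes were 0.00225, 0.0451 and 0.0058. PCDHB2 was thus 1 of 2 genes called higher at all 3 stages (0.0164% of those tested); the other was CDKN2A. In hESC the call stood in every fit with a library left out. At Day 5 it was lost when any Day 5 library other than LIS1+/- replicate 2 was left out (log2 fold change 0.65 to 0.94, adjusted p = 0.0744 to 0.272) or when the Day 5 libraries were fitted alone (0.85, adjusted p = 0.111), and at Day 12 without LIS1+/- replicate 3 (1.12, adjusted p = 0.0596). No change of the PCDHB2 genotype effect between stages passed. It moved by -0.94 ± 0.37 from hESC to Day 5, by 0.37 ± 0.33 from there to Day 12 and by -0.57 ± 0.38 over both steps, with edgeR's adjusted p at 0.289, 0.688 and 0.748. In GENCODE 29 the exons of PCDHB2 share 620 bases with an antisense transcript, and the sources used here do not give whether counting used strand, so tags of both cannot be told apart. Antisense or neighbouring transcripts overlap exons of PCDHB3, PCDHB5, PCDHB9, PCDHB10, PCDHB14, PCDHB16 and PCDH9 too.

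Among the other beta genes none passed in a genotype comparison at a single stage. In hESC 1 of the 8 tested beta genes was called (PCDHB2), against 0.491% of all tested genes, at Day 5 again 1 of 8 against 1.95%, and at Day 12 1 of 8 against 1.4%. The median log2 fold change of the 8 was 0.36, 0.47 and 0.29 at the 3 stages, against 0.03, 0.01 and -0.01 over all tested genes. PCDHB14 and PCDHB10, the next in counts, differed by 0.45 ± 0.49 and 0.14 ± 0.48 in hESC, by 0.05 ± 0.34 and 0.18 ± 0.35 at Day 5, and by 0.30 ± 0.34 and 0.00 ± 0.34 at Day 12 (log2, SE). Their adjusted p-values from edgeR lay between 0.763 and 1.

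PCDHB5 went the other way. Its counts were 10, 5 and 1 in hESC LIS1+/+ and 3, 2 and 0 in hESC LIS1+/-, 15, 15 and 18 against 1, 0 and 4 at Day 5, and 13, 6 and 5 against 1, 6 and 2 at Day 12. In CPM the Day 5 libraries stood at 3.62, 3.38 and 4.06 against 0.374, 0 and 1.17, and the Day 12 libraries at 8.3996, 3.77 and 2.43 against 0.618, 1.71 and 0.570, without overlap at either age (9.45% and 8.43% of all tested genes were lower without overlap at Day 5 and Day 12). By stage the log2 fold change was -1.86 ± 0.94, -2.63 ± 0.83 and -2.16 ± 0.81, with adjusted p from edgeR of 0.468, 0.126 and 0.227, so no stage passed alone. A comparison of the genotypes averaged over the 3 stages was added after these values were seen. In it PCDHB5 was lower in LIS1+/- by -2.22 ± 0.50 (adjusted p = 0.0137), PCDHB2 was higher by 1.30 ± 0.15 (adjusted p = 2.8e-06) and the other 6 tested beta genes did not pass, with 2.06% of all tested genes called. The PCDHB5 call was lost without hESC LIS1+/+ replicate 1 (-2.01, adjusted p = 0.0675). PCDHB2 and PCDHB5 thus showed opposite signs in the averaged comparison.

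PCDHB12 and PCDHB4 had low counts with more tags in LIS1+/-. PCDHB12, below the filter, had 0, 1 and 0 counts in Day 12 LIS1+/+ and 8, 7 and 7 in Day 12 LIS1+/-, a ratio of pooled counts of 13.2 (95% counting interval 2.14 to 546, counting error only). In the fit without the filter on low counts the log2 difference was 3.60 ± 1.55, which did not pass (adjusted p = 0.282 by edgeR). PCDHB12 was singled out after its values were seen. For PCDHB4 the counts were 0, 0 and 1 against 5, 1 and 5 in hESC, 0, 1 and 5 against 11, 2 and 3 at Day 5, and 0, 6 and 0 against 7, 8 and 8 at Day 12. Its averaged difference was 2.00 ± 0.72 (adjusted p = 0.173 by edgeR), and it passed without Day 12 LIS1+/+ replicate 2 (3.58, adjusted p = 0.0263) and without all 3 libraries that stood apart (4.51, adjusted p = 0.0159). Under 21 other alternatives it did not pass, with adjusted p up to 0.388 by edgeR when a library was left out.

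**Figure D3:**
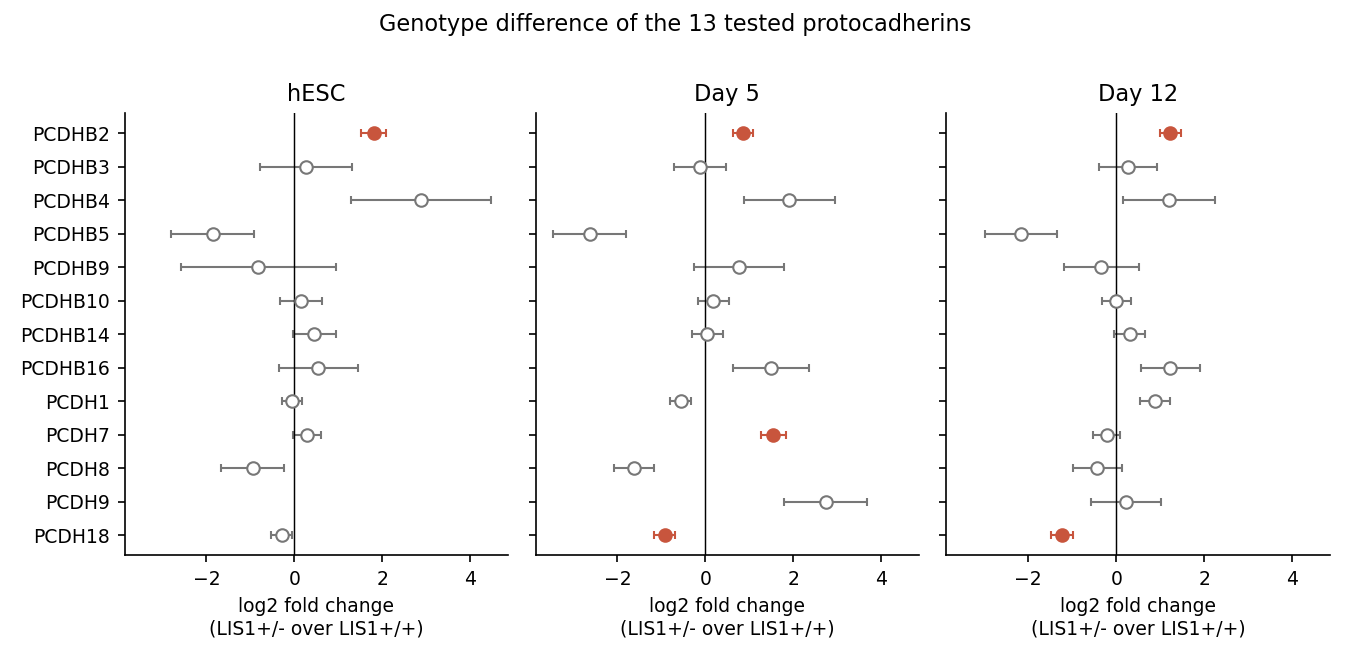
Log2 fold change of LIS1+/- over LIS1+/+ (horizontal axis) with its SE for the 13 tested protocadherins in hESC, at Day 5 and at Day 12; filled red points passed at an adjusted p under 0.05 and open grey points did not, and PCDH9 is left out in hESC, where it had no count. PCDHB2 is to the right at each stage, at 1.80, 0.86 and 1.23, and PCDH18 to the left at Day 5 and Day 12, at -0.92 and -1.24.

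Outside the clusters, PCDH18 was lower in LIS1+/- organoids. PCDH18 is a delta-2 protocadherin that binds the adaptor DAB1 of the reelin pathway. LIS1+/+ hESC had 51.9, 58.1 and 87.5 CPM and LIS1+/- hESC 46.1, 47.3 and 66.7 CPM, with overlap. Day 5 organoids had 80.6, 65.1 and 68.6 CPM in LIS1+/+ and 29.2, 37.3 and 45.9 CPM in LIS1+/-. Day 12 organoids had 75.6, 49.1 and 51.6 CPM in LIS1+/+ and 22.3, 31.3 and 20.2 CPM in LIS1+/-, and at both ages every LIS1+/- library was below every LIS1+/+ library. Of all tested genes, 9.45% at Day 5 and 8.43% at Day 12 were lower without overlap. The log2 fold changes at the 3 stages were -0.29 ± 0.24, -0.92 ± 0.23 and -1.24 ± 0.25. Their adjusted p-values by edgeR were 0.695, 0.0355 and 0.00833, so both organoid ages passed. Averaged over the stages it was -0.82 ± 0.14 (adjusted p = 0.000922), a call that stood in all 18 fits with a library left out.

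The single-stage PCDH18 calls depended on which libraries were included. At Day 5 the call was lost when any Day 5 library other than LIS1+/- replicate 3 was left out (-0.999 to -0.78, adjusted p = 0.0664 to 0.167). At Day 12 it was lost without LIS1+/+ replicate 1 (-1.02, adjusted p = 0.0756), without LIS1+/- replicate 3 (-1.10, adjusted p = 0.0843) and when the Day 12 libraries were fitted alone (-1.26, adjusted p = 0.0549). Day 12 minus hESC was -0.95 ± 0.35 (adjusted p = 0.352), and it passed when the 3 libraries that stood apart were left out (-1.32, adjusted p = 0.0495). Under 17 other alternatives it did not pass, with adjusted p up to 0.704 by edgeR when a library was left out.

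Some markers of other cells differed between the genotypes at the same stages. Of all tested genes, 1.95% were called at Day 5 and 1.4% at Day 12. At Day 12, 6 of 7 tested mesenchyme markers and 7 of 8 neural crest markers were lower in LIS1+/-. The 10 mesenchyme markers summed to 148 to 980 CPM in Day 12 LIS1+/+ and 91.3 to 123 CPM in Day 12 LIS1+/-, with 0 and 1 of them at 0 in all libraries of the group. The 8 neural crest markers summed to 128 to 474 CPM against 47.6 to 60.0 CPM, also with 0 and 1 at 0, and SOX10, the defining crest regulator, ran from 5.66 to 87.9 CPM against 0.569 to 1.85 CPM. Non-neural ectoderm markers were lower for 2 of 6 tested at Day 5 and 3 of 6 at Day 12, with the 7 listed markers summing to 442 to 528 CPM against 224 to 320 CPM and to 105 to 320 CPM against 184 to 208 CPM (1 and 0, then 1 and 2 at 0). Of 4 tested endoderm markers 2 were lower at Day 12 (sum of 5 listed, 20.8 to 456 against 7.98 to 20.4 CPM, 0 and 2 at 0), and of 7 choroid plexus and roof plate markers 1 was higher (sum of 8 listed, 681 to 908 against 1015 to 1298 CPM, 1 and 1 at 0). At Day 5, 1 of 7 mesenchyme markers, 1 of 8 neuron markers and 4 of 9 tested pluripotency markers were lower (1 of 9 at Day 12), the 10 pluripotency markers summing to 1638 to 1742 CPM against 1091 to 1422 CPM, with 1 and 2 at 0. Of 10 neural progenitor markers 1 was higher at Day 5 and 0 passed at Day 12 by edgeR, with 2 at an unadjusted p under 0.05 and 0 by DESeq2. By edgeR 0 of 8 neural crest, 0 of 7 choroid plexus and roof plate and 0 of 4 endoderm markers passed at Day 5. Of these, 2, 0 and 1 had an unadjusted p under 0.05. At Day 12, 0 of 8 neuron markers passed, with 1 at an unadjusted p under 0.05. DESeq2 called 0 in each of these lists. In LIS1+/+ the mesenchyme sum was 504 to 531 CPM in hESC and 56.2 to 74.0 CPM at Day 5. Of the hESC sum, COL1A1 made up 141 to 154 CPM and COL1A2 246 to 273 CPM, with LUM at 0, so it is no measure of mesenchymal cells there. PCDH18 was at 51.9 to 87.5 CPM in LIS1+/+ hESC and 65.1 to 80.6 CPM at Day 5. The part of these cells in the PCDH18 and PCDHB2 results was not tested. In hESC, 0 of the 58 tested markers of the 8 cell type lists passed between genotypes by edgeR, with 10 at an unadjusted p under 0.05 and 1 called by DESeq2, while alignments set aside as not unique averaged 52.9% in LIS1+/+ and 42.8% in LIS1+/-, and their part in the PCDHB2 result was not tested.

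PCDH7 was higher in LIS1+/- at Day 5 and did not pass in hESC or at Day 12. PCDH7 is a delta-1 protocadherin that takes part in axon growth. LIS1+/+ hESC had 19.5, 18.035 and 21.1 CPM and LIS1+/- hESC 24.6, 19.4 and 27.4 CPM, with overlap. Day 5 organoids had 14.2, 13.7 and 16.9 CPM in LIS1+/+ and 46.3, 48.6 and 36.9 CPM in LIS1+/-, without overlap (8.06% of all tested genes were higher without overlap). Day 12 organoids had 11.0, 32.7 and 17.5 CPM in LIS1+/+ and 10.5, 16.5 and 23.7 CPM in LIS1+/-, with overlap. The log2 fold change was 0.29 ± 0.32 (adjusted p = 0.776 by edgeR), 1.55 ± 0.29 (2.92-fold, adjusted p = 0.00239) and -0.22 ± 0.32 (adjusted p = 0.818), and the Day 5 call stood in each fit with a library left out. The change of the genotype effect from Day 5 to Day 12 was -1.77 ± 0.43 (adjusted p = 0.0363), 1 member of 13 against 1.06% of all tested genes. This difference was lost in 8 of 12 fits with a library left out: without any of the 3 Day 5 LIS1+/+ libraries, Day 5 LIS1+/- replicate 1 or 2, Day 12 LIS1+/+ replicate 2 (-1.27, adjusted p = 0.187), or Day 12 LIS1+/- replicate 1 or 2. It was lost without the 3 libraries that stood apart too (-1.19, adjusted p = 0.239). From hESC to Day 5 the genotype effect changed by 1.26 ± 0.43 (adjusted p = 0.211).

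PCDH8, a delta-2 protocadherin of early mesoderm and of synapses, was separated by genotype at Day 5 without passing. The Day 5 levels were 29.7, 21.4 and 30.9 CPM in LIS1+/+ and 6.35, 13.2 and 7.02 CPM in LIS1+/-, with no overlap (9.45% of all tested genes were lower without overlap). The log2 fold change was -1.63 ± 0.45 (3.09-fold lower) with adjusted p = 0.0635 by edgeR. It passed under 4 alternatives and not under 8, with adjusted p up to 0.221 by edgeR when a library was left out. Among the 4 were the fit without the filter on low counts (-1.64, adjusted p = 0.000502), that of the Day 5 libraries alone (-1.64, adjusted p = 0.0144) and that without the 3 libraries that stood apart (-2.02, adjusted p = 0.0253). In hESC the genotypes differed by -0.95 ± 0.71 and at Day 12 by -0.43 ± 0.56, with adjusted p of 0.654 and 0.790. PCDH1 and PCDH9 passed at no stage; PCDH1 was at 5.17, 5.66 and 5.84 CPM in Day 12 LIS1+/+ and 9.27, 9.67 and 11.7 CPM in Day 12 LIS1+/-, a log2 difference of 0.88 ± 0.34 (adjusted p = 0.249).

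**Figure D4:**
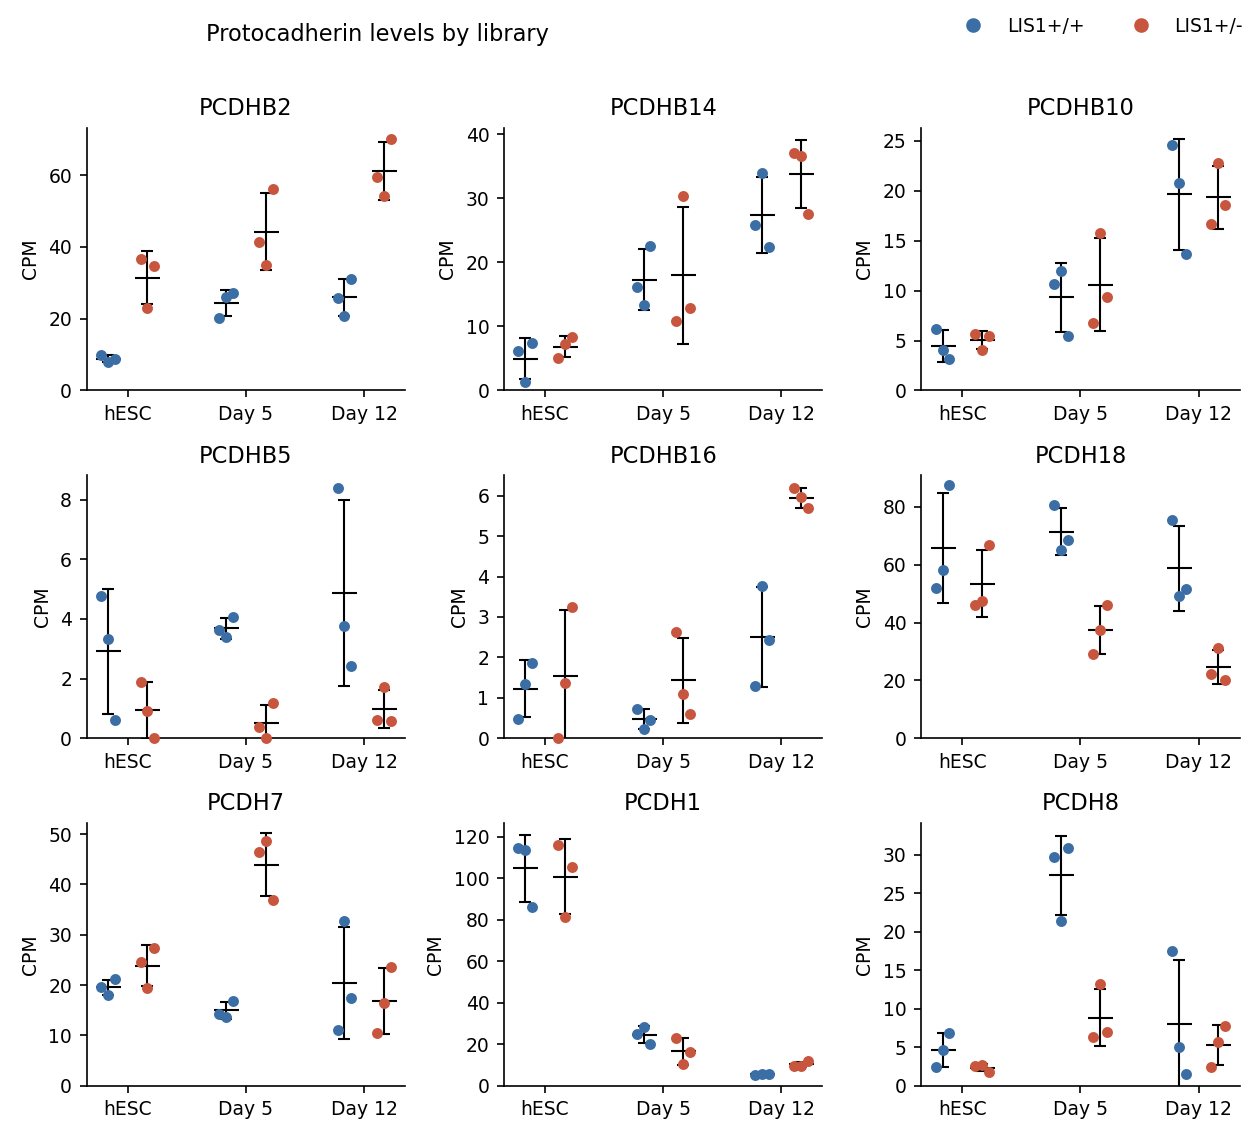
Levels of 9 protocadherins (CPM, linear axes from 0) by stage, with 1 point per library, LIS1+/+ in blue, LIS1+/- in red, and black bars for the mean and SD of 3 libraries, cut at 0. PCDHB2 and PCDHB5 show opposite genotype differences, PCDH7 is separate at Day 5 alone, and PCDH1 falls from about 105 CPM in LIS1+/+ hESC to under 6 CPM at Day 12.

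Few of the 8 tested beta genes were called between successive stages, and each of these was higher at the later one. In LIS1+/- the shares called higher were near those of all tested genes, at 25% against 22.4% and 12.5% against 8.9%. In LIS1+/+ they were 37.5% against 22.9% and 25% against 12.7%. From hESC to Day 5 in LIS1+/+, 3 of 8 tested beta genes were higher and 0 lower, where 22.9% of all tested genes were higher. PCDHB14 went from 6.19, 1.34 and 7.45 CPM to 16.2, 13.3 and 22.6 CPM, a log2 rise of 1.75 ± 0.43 (adjusted p = 0.00178 by edgeR). PCDHB2 rose by 1.44 ± 0.28 (adjusted p = 0.00016) from the levels given above. PCDHB10 went from 6.19, 4.01 and 3.10 CPM to 10.6, 11.9 and 5.41 CPM, with overlap, a rise of 1.03 ± 0.42 (adjusted p = 0.0487). That last call was lost with DESeq2's size factors (0.99, adjusted p = 0.0573), with DESeq2's test (adjusted p = 0.0606) and without the 3 libraries that stood apart (0.83, adjusted p = 0.143). It was also lost without hESC replicate 2 or 3 or Day 5 replicate 1 or 2 (0.79 to 0.96, adjusted p = 0.115 to 0.179).

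In LIS1+/-, 2 of 8 tested beta genes were higher at Day 5 than in hESC and 0 lower, against 22.4% higher of all genes. PCDHB14 went from 5.05, 7.21 and 8.29 CPM to 10.8, 30.3 and 12.9 CPM (1.35 ± 0.40, adjusted p = 0.00825 by edgeR). PCDHB10 went from 5.68, 4.06 and 5.41 CPM to 6.73, 15.7 and 9.36 CPM (1.07 ± 0.40, adjusted p = 0.0346). The highest Day 5 value of both genes came from replicate 2, which stood apart, and without the 3 such libraries the changes were 0.75 (adjusted p = 0.101) and 0.69 (adjusted p = 0.205). Without that replicate alone they were 0.76 (adjusted p = 0.120) and 0.69 (adjusted p = 0.207), and the PCDHB10 call was lost without any of the 3 hESC libraries too (0.93 to 1.14, adjusted p = 0.0534 to 0.119). PCDHB2, already high in LIS1+/- hESC, changed by 0.50 ± 0.23 (adjusted p = 0.0831).

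From Day 5 to Day 12, 2 of 8 tested beta genes were higher in LIS1+/+ and 0 lower, against 12.7% higher of all genes. PCDHB10 reached 24.6, 20.8 and 13.6 CPM (1.06 ± 0.35, adjusted p = 0.0279 by edgeR). This PCDHB10 call was lost without Day 5 replicate 3 (0.78, adjusted p = 0.134) and without Day 12 replicate 1 (0.86, adjusted p = 0.123) or 2 (1.01, adjusted p = 0.0742). PCDHB16 went from 0.724, 0.225 and 0.451 CPM to 1.29, 3.77 and 2.43 CPM (2.32 ± 0.85, adjusted p = 0.0462). In LIS1+/- PCDHB16 alone of the 8 was called higher, against 8.9% of all genes, from 2.62, 1.10 and 0.585 CPM to 6.18, 5.98 and 5.70 CPM (2.06 ± 0.67, adjusted p = 0.0343). Both PCDHB16 calls rest on few counts, 6 and 12 at Day 5. Each was lost in 5 of 6 fits with a compared library left out, at 1.94 to 2.72 (adjusted p up to 0.186) in LIS1+/+ and 1.65 to 2.09 (adjusted p up to 0.149) in LIS1+/-. They stood without Day 12 LIS1+/+ replicate 1 and without Day 5 LIS1+/- replicate 1, and were lost without the 3 libraries that stood apart (1.95, adjusted p = 0.184 in LIS1+/+ and 1.93, adjusted p = 0.0854 in LIS1+/-). PCDHB14 reached 25.8, 34.0 and 22.4 CPM in LIS1+/+ (0.65 ± 0.35, adjusted p = 0.175) and 37.1, 36.7 and 27.6 CPM in LIS1+/- (0.91 ± 0.34, adjusted p = 0.0702). PCDHB2 did not pass in either genotype, at 0.09 ± 0.24 (adjusted p = 0.811) and 0.46 ± 0.22 (adjusted p = 0.162).

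PCDH1 fell at both steps in LIS1+/+ and at the first step in LIS1+/-. PCDH1, a delta-1 protocadherin of epithelia, stood at 115, 114 and 86.3 CPM in hESC LIS1+/+, at 24.8, 28.4 and 20.3 CPM at Day 5 and at 5.17, 5.66 and 5.84 CPM at Day 12. No libraries of successive stages overlapped, as for 26.9% and 20.3% of all tested genes that were lower at these steps. The log2 changes were -2.10 ± 0.23 (adjusted p = 4.0e-08 by edgeR) and -2.13 ± 0.31 (adjusted p = 1.7e-05). In LIS1+/- it stood at 116, 81.1 and 105 CPM in hESC, 23.2, 10.2 and 16.4 CPM at Day 5 and 9.27, 9.67 and 11.7 CPM at Day 12, with changes of -2.60 ± 0.24 (adjusted p = 2.0e-09) and -0.68 ± 0.27 (adjusted p = 0.0874). The genotype effect changed by 1.45 ± 0.42 from Day 5 to Day 12, which did not pass (adjusted p = 0.111). It passed without the filter on low counts (1.48, adjusted p = 0.0416) and without Day 5 LIS1+/- replicate 1 (1.75, adjusted p = 0.0313). Under 16 other alternatives it did not pass, with adjusted p up to 0.295 by edgeR when a library was left out.

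PCDH8 rose at Day 5 and was lower again at Day 12 in LIS1+/+. Its hESC levels were 2.38, 4.68 and 6.83 CPM in LIS1+/+ and 2.53, 2.70 and 1.80 CPM in LIS1+/-, below the Day 5 levels given above in both genotypes. The rise was 2.59 ± 0.53 (adjusted p = 0.000317 by edgeR) in LIS1+/+ and 1.92 ± 0.61 (adjusted p = 0.0137) in LIS1+/-. The LIS1+/- call was lost without the 3 libraries that stood apart (1.53, adjusted p = 0.0584), without Day 5 replicate 2 (1.53, adjusted p = 0.0642) and without hESC replicate 3 (1.73, adjusted p = 0.0671). At Day 12 the levels were 17.4, 5.03 and 1.46 CPM in LIS1+/+ and 2.47, 5.69 and 7.69 CPM in LIS1+/-, a change of -1.83 ± 0.49 (adjusted p = 0.00799) and -0.64 ± 0.51 (adjusted p = 0.432). The LIS1+/+ fall was -3.14 without Day 12 replicate 1 and -1.29 without Day 12 replicate 3, and passed in all 6 fits with a compared library left out. Steps into and out of Day 5 share the Day 5 libraries, so a rise followed by a fall is not 2 independent results.

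PCDH7 passed between stages in LIS1+/-, and PCDH9 passed at a different step in each genotype. PCDH7 rose from hESC to Day 5 in LIS1+/- (0.88 ± 0.29, adjusted p = 0.016 by edgeR) and fell to Day 12 (-1.33 ± 0.29, adjusted p = 0.00213), while in LIS1+/+ the changes were -0.39 ± 0.31 (adjusted p = 0.328) and 0.44 ± 0.31 (adjusted p = 0.312). The rise was lost without hESC LIS1+/- replicate 2 (0.75, adjusted p = 0.081). PCDH9, a delta-1 protocadherin of the nervous system, had 0 counts in all 6 hESC libraries. Its counts at Day 5 were 0, 5 and 1 in LIS1+/+ and 2, 19 and 8 in LIS1+/-, and at Day 12 12, 4 and 3 in LIS1+/+ and 7, 9 and 22 in LIS1+/-. In LIS1+/- the rise from hESC was at least 7.20-fold, taking 3 counts in the whole group as the floor (adjusted p = 0.00585), and in LIS1+/+ the rise from Day 5 to Day 12 was 2.92 ± 0.98 (adjusted p = 0.0334). That last call was lost without Day 5 LIS1+/+ replicate 1 (2.399, adjusted p = 0.110) or 3 (2.61, adjusted p = 0.0986) and without Day 12 LIS1+/+ replicate 1 (1.97, adjusted p = 0.245). Without Day 5 LIS1+/+ replicate 2 it was 4.53 (adjusted p = 0.0199). At Day 5 the genotypes differed by 2.73 ± 0.94, which did not pass (adjusted p = 0.189), and the PCDH9 genotype effect moved by -2.52 ± 1.24 from Day 5 to Day 12 (adjusted p = 0.408). PCDH18 passed in none of the 4 steps.

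The other genes outside the clusters had few counts. PCDH17, a delta-2 protocadherin that recruits actin regulators at contacts between axons, had 0 counts in hESC LIS1+/+ and 26 at Day 5 (13, 8 and 5), at least 3.47-fold higher by the same floor. In LIS1+/- it had 1 count in hESC and 18 at Day 5, a ratio of 13.4 (95% counting interval 2.12 to 559). PCDH10, which also recruits actin regulators, had 0 counts in Day 5 LIS1+/+ and 7 at Day 12, at least 5.85-fold higher, while in LIS1+/- it had 3 counts at Day 5, all in replicate 3, and 1 at Day 12. PCDH20 had 4 counts in all, 3 in hESC LIS1+/- replicate 3 and 1 in Day 12 LIS1+/- replicate 3.

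Over all 13 tested members, the share called was near the background at the early step and the genotype calls were few. From hESC to Day 5, 5 members passed in LIS1+/+ (38.5%, against 44.6% of all tested genes) and 6 in LIS1+/- (46.2%, against 43.7%). From Day 5 to Day 12, 5 passed in LIS1+/+ (38.5%, against 24.5%) and 2 in LIS1+/- (15.4%, against 16.5%). Between genotypes, 1, 3 and 2 of 13 passed in hESC, at Day 5 and at Day 12, against 0.491%, 1.95% and 1.4% of all tested genes. The change of the genotype effect passed in edgeR for 0 of 13 from hESC to Day 5 (0.573% of all genes) and for 0 of 13 from hESC to Day 12 (0.377%). In each, 2 members had an unadjusted p under 0.05 and DESeq2 called 0.

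Of 22 tested genes that act on protocadherin promoter choice or silencing (CTCF, cohesin and its loaders, SMCHD1, SETDB1, DNA methyltransferases and others), 0 passed in hESC, 1 at Day 5 and 0 at Day 12 by edgeR. In hESC and at Day 12, 2 each had an unadjusted p under 0.05, and DESeq2 called 1 and 0. The gene called at Day 5 was DNMT3B, a DNA methyltransferase that is also on the pluripotency list, at 203, 199 and 177 CPM in Day 5 LIS1+/+ and 90.1, 112 and 107 CPM in Day 5 LIS1+/- (-0.90 ± 0.15, adjusted p = 0.000743 by edgeR). Averaged over the stages, 1 of the 22 was called lower, DNMT3B again (-0.45 ± 0.09, adjusted p = 0.00433). From hESC to Day 5, 6 of the 22 rose and 3 fell in LIS1+/+, and 8 rose and 4 fell in LIS1+/-, where 44.6% and 43.7% of all tested genes were called in either direction, with DNMT3B changing by -3.06 ± 0.16 and -3.54 ± 0.16 on the log2 scale. TRIM28, a corepressor that recruits SETDB1, changed over the same step by -0.36 ± 0.22 in LIS1+/+ (adjusted p = 0.187) and -1.28 ± 0.22 in LIS1+/- (adjusted p = 4.8e-05), and from Day 5 to Day 12 by -1.05 ± 0.22 (adjusted p = 0.00115) and -0.51 ± 0.22 (adjusted p = 0.112). From Day 5 to Day 12, 2 rose and 4 fell in LIS1+/+, and 0 rose and 1 fell in LIS1+/-, against 24.5% and 16.5% of all genes. RNA levels do not measure where these proteins bind.

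Of 23 tested partners and effectors of protocadherins, such as the WAVE complex, focal adhesion kinases and the proteases that cut protocadherins, 0 passed in a genotype comparison at any stage by edgeR. Stage by stage, 4, 3 and 2 had an unadjusted p under 0.05, and DESeq2 called 1, 1 and 0. From hESC to Day 5, 6 rose and 1 fell in LIS1+/+, and 5 rose and 4 fell in LIS1+/-, again against 44.6% and 43.7% of all tested genes. The kinase FYN rose by 1.56 ± 0.23 (adjusted p = 4.3e-06 by edgeR) and 0.64 ± 0.22 (adjusted p = 0.0185) in LIS1+/+ and LIS1+/-. AXIN1, a scaffold of the complex that degrades beta-catenin, changed by -0.36 ± 0.17 (adjusted p = 0.0956) and -1.16 ± 0.18 (adjusted p = 5.8e-06). From Day 5 to Day 12, 4 rose and 1 fell in LIS1+/+, and 3 rose and 0 fell in LIS1+/-, against 24.5% and 16.5%.

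Facts of the whole series bear on all of these values. PAFAH1B1 itself was lower in every LIS1+/- library than in any LIS1+/+ library of its stage, with log2 differences of -0.67, -0.58 and -0.78 (adjusted p = 0.173, 0.148 and 0.0372 by edgeR). From hESC to Day 5, 7 of 9 tested pluripotency markers fell and 1 rose in LIS1+/+, and 8 fell and 1 rose in LIS1+/-. Of 10 neural progenitor markers 8 rose and 2 fell in both genotypes. Most markers of both lists thus moved with the labelled stages. Of all tested genes, 44.6% and 43.7% were called in either direction at this step in LIS1+/+ and LIS1+/-. Whether the 3 libraries of a group came from separate cultures is not stated in the labels; the p-values then cover the spread between these libraries alone, which may be technical.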

How the data were processed

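Bulk MARS-seq libraries from WIBR3 cells and organoids were analysed, 3 in each of 6 groups set by the genotype and stage in the labels. The authors deposited raw counts for each gene symbol in 18 files, without normalization. The submitters' processing notes name cutadapt, STAR and DESeq2 without versions and the builds GRCh37 and hg38. Strand use and the handling of molecular identifiers are not given in the sources used here. Rows for alignments without a gene stayed out of library sizes and tests: alignments set aside as not unique made up 26.5 to 58.3% of a library, those without a feature 11.9 to 25.4% and ambiguous ones 0.418 to 0.677%.

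Genes passing filterByExpr on the 6 groups (12215 of 26485) were scaled with TMM and tested with edgeR 4.0.16 (R 4.3.3, quasi-likelihood F-test, robust, two-sided) in 1 fit of 18 libraries, with 12 residual degrees of freedom. Benjamini-Hochberg adjustment ran over all tested genes, with a threshold of 0.05. There were 10 comparisons: genotypes at each stage, successive stages in each genotype, and differences of the genotype effect. The genotype effect averaged over stages was added after values at each stage were seen. A fold against a group without counts took 3 counts in the whole group as the floor, and intervals are 95% and cover counting error only. With 3 libraries in a group and 318 to 925 protocadherin counts in a library, small differences could not be detected.

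Alternatives were DESeq2 size factors, DESeq2 1.42.0 as the test, no filter, a fit limited to the compared libraries, a replicate block, each library left out, and the 3 libraries that stood apart left out together. Members, lists and rules were chosen with earlier results of these data known. Values in every library are given for members that passed in a genotype comparison or in a difference of effects, the 3 highest of each cluster by mean CPM, and up to 4 rises and 4 falls that passed at each step. The 2 lists of other genes, from textbook knowledge, are given by counts, with up to 2 genes named by adjusted p. The motif letters were chosen after the beta promoters were seen, and single low-count genes were singled out after their values were seen.

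Gene models and constant exons came from GENCODE 29 (GRCh38) and promoters from RefSeq (GRCh38.p14). Matching promoters were found for 13 alpha, 14 beta, 20 gamma and 8 other members. Whether the authors counted on this annotation is not known. The fits were tested on simulated data. Figures used Matplotlib 3.10.9 in Python 3.11.15.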

Additional observations from a re-analysis of the deposited data

Results flagged for a closer look

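The genotype effect on PCDH7 differed between Day 5 and Day 12 by a test of the difference itself, at -1.77 ± 0.43 on the log2 scale (Day 12 minus Day 5, adjusted p = 0.0363 by edgeR). PCDH7 was higher in all 3 LIS1+/- libraries than in all 3 LIS1+/+ libraries at Day 5 and overlapped at Day 12. At Day 12 the highest value, 32.7 CPM, came from LIS1+/+ replicate 2, which stood apart from the other libraries of its stage, and without it the difference was -1.27 (adjusted p = 0.187).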

How the results depend on the processing

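For single members, only comparisons called in the fit of all libraries or in at least 1 alternative were followed. None of these changed sign. Of their results under an alternative, 476 stayed on their side of the threshold, 66 lost the call and 29 gained one. Counts of members called that moved by over 1.5 times were these. A fit of only the compared libraries gave 1 at Day 12 between genotypes (2 in the fit of all libraries), 3 from Day 5 to Day 12 in LIS1+/+ (5) and 0 for the genotype effect of Day 12 minus Day 5 (1). Without the 3 libraries that stood apart there were 4 from Day 5 to Day 12 in LIS1+/- (2), 0 for Day 12 minus Day 5 (1), 1 for Day 12 minus hESC (0) and 5 averaged over stages (3). With no filter there were 2 for Day 12 minus Day 5 and 5 averaged over stages. With each library left out in turn the count ran from 1 to 3 at Day 5 between genotypes, 0 to 2 at Day 12, 3 to 4 from Day 5 to Day 12 in LIS1+/+, 1 to 4 in LIS1+/-, 0 to 1 for Day 12 minus Day 5 and 2 to 5 averaged over stages. With 1 library left out, the pair left in its group was assumed to vary like the other groups. The cause of these shifts was not tested.

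Whether replicate numbers in the labels pair libraries was not settled. Deviations of same-numbered libraries correlated between -0.126 and 0.101 across genotypes, with 1 of 9 pairs over 0.1. At Day 12 the same-numbered pairs, at 0.040, 0.084 and 0.047, were above all pairs of different number, of which the highest was 0.012. At Day 5 the same-numbered pairs were all negative, at -0.058, -0.126 and -0.013. With the replicate block the genotype comparisons again gave 1, 3 and 2 members, and the step from Day 5 to Day 12 in LIS1+/+ gave 4, as PCDHB16 no longer passed (2.31, adjusted p = 0.0603). Depth limits the alpha and gamma genes and the lesser beta genes, for which group totals were often under 10 counts.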
